A study of Homo sapiens with 18 samples.

Results

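Copper and platinum drugs share several routes across the cell membrane, and the RNA levels of 8 genes of those routes were followed across 6 ovarian cancer cell lines. The 8 genes were chosen by name. They are the copper importers SLC31A1 and SLC31A2, the copper-exporting ATPases ATP7A and ATP7B, the volume-regulated channel subunits LRRC8A and LRRC8D, and the copper chaperones COX17 and CCS. The expression table listed 12853 genes, and 7 of the 8 were among them. SLC31A2 had no row, either by symbol or by Ensembl gene number, and was not analysed here.

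Platinum-sensitive and platinum-resistant lines were compared in 3 pairs, with 3 RNA-seq libraries per line and 18 in all. A2780 is a sensitive ovarian cancer line and CP70 its resistant derivative, selected in culture. PEA1 and PEA2 are high-grade serous ovarian cancer lines from 1 patient, taken before chemotherapy and after resistant relapse. The PEO lines share a donor too and are of the same tumour type. That donor had received platinum drugs before either line was taken, and the tumour had become resistant in the clinic by the time of PEO4 but not of PEO1. All 6 lines were grown in RPMI-1640 with glutamine and 10% FBS, the labels name no drug on the cells sequenced here, and no gene was deleted or overexpressed in them. Each line is a single culture model, and nothing in the labels says that its 3 libraries came from separate cultures, so a p-value measures the spread between these libraries, which may be technical.

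SLC31A1, also called CTR1, is the main importer of copper into human cells, and it is known as a carrier of cisplatin as well. ATP7A and ATP7B are copper-pumping ATPases of the secretory pathway that move copper, and in laboratory models platinum drugs, out of the cytosol. The LRRC8 proteins assemble into chloride and organic solute channels that open when a cell swells. LRRC8A is required in every such channel, and channels that contain LRRC8D are known to pass cisplatin. COX17 hands copper to the proteins that build cytochrome c oxidase in mitochondria, and CCS hands it to superoxide dismutase 1.

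The short upstream stretches that follow are shown because SP1, known as a regulator of SLC31A1, binds GC boxes, and MTF1, the metal-responsive factor, binds metal response elements. Both factors were in the expression table. The letters searched, on both strands, were GGGCGG for the GC box and TGCACNC or TGCGCNC for the metal response element core. Each window held 250 bases before and 50 after a RefSeq transcription start in GRCh38.p14, and 45% of 35116 windows held a GC box and 29.6% a metal response core. The first window of SLC31A1 held 3 GC boxes, that of ATP7B 3, that of LRRC8A 2, that of LRRC8D 1, and those of ATP7A, COX17 and CCS 0. A metal response core was found once in the first window of ATP7B, downstream of its start, once in that of COX17 and 2 times, overlapping on opposite strands, in that of CCS. Further windows, where a gene had them, differed. The second window of COX17 held 4 GC boxes and 1 metal response core, and that of LRRC8D 3 and 1. The second window of ATP7B held 3 GC boxes and 2 metal response cores, both upstream of its start. The third window of ATP7B and the second of LRRC8A held neither motif. Matches describe these letters and are not measured binding. Capitals mark the matched letters, written 5′ to 3′ on the strand of the gene.

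SLC31A1, chr9:113221470-113221543, plus strand: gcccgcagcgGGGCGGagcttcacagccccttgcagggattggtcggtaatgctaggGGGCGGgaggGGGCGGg
ATP7B, chr13:52012195-52012230, minus strand: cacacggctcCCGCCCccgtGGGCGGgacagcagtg
LRRC8A, chr9:128882109-128882132, plus strand: gtcacttccgGGGCGGaggaggct
LRRC8D, chr1:89820917-89820942, plus strand: aggcccgggcCCGCCCcattggctgc
COX17, chr3:119677453-119677479, minus strand: ttgcctcttcTGCGCACgcgctccttt
CCS, chr11:66593129-66593156, plus strand: agggccttgcGTGCGCACgcactaggag

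The libraries held 1344098 to 7067336 reads in listed genes, and PEA1 was the shallowest line, at 1344098 to 1670866. In these libraries 3 reads were worth 0.452 to 2.18 CPM (counts per 1e+06 reads). Of 8 markers of ovarian carcinoma epithelium, all 8 were above 3 reads in every library of PEA2, PEO1 and PEO4, 5 in PEA1, 3 in CP70 and 0 in A2780. The highest of them in A2780 was EPCAM, with at most 5 reads in a library. Their summed level was 2.80 to 4.47 CPM in A2780 against 91.2 to 96.7 in CP70, 432 to 590 in PEA1 against 3599 to 3831 in PEA2, and 6406 to 7428 in PEO1 against 4498 to 6080 in PEO4. The 3 listed fibroblast markers summed to 367 to 448 CPM in PEA1 and to 3.60 to 4.80 CPM in PEA2. In both of these lines DCN and LUM had 0 reads, so the sum was that of COL1A1, at a mean log2 value of 8.62 in PEA1 and 1.95 in PEA2. The same sum was 6.32 to 13.2 CPM in A2780 and 37.7 to 41.9 CPM in CP70, where DCN averaged 1.19 and 4.56, LUM -0.36 and 3.5, and COL1A1 2.71 and 2.22 on the log2 scale. In PEO1 and PEO4 it was 3.43 to 7.31 and 5.17 to 10.2 CPM. PTPRC, a leukocyte marker, and CDH5, an endothelial marker, were above 3 reads in every library of PEA2, at 20.3 to 25.3 and 25.5 to 36.4 CPM, and of no other line. These marker differences run along the same pairs as the results that follow, and their part in the results was not tested.

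All values are log2 CPM, and a change is the mean of the resistant line minus that of the sensitive line (log2FC). One limma fit covered the 18 libraries, and a gene was called changed at an FDR, adjusted over all 12853 genes, below 0.05. In the A2780 pair 2 of the 7 genes were called, 1 higher and 1 lower, in a background where 39.9% of all genes were called, 22.2% higher and 17.7% lower. In the PEA pair 4 were called, 2 higher and 2 lower, against 61.9% of all genes, 32.5% higher and 29.4% lower. In the PEO pair 4 were called, 1 higher and 3 lower, against 41.5% of all genes, 19.6% higher and 21.9% lower. With 7 genes these counts lie near the background shares. A change of more than 2 on the log2 scale was reached by ATP7B and COX17 in the PEA pair, where 14.1% of all genes passed that limit, and by none of the 7 in the A2780 and PEO pairs, where 9.06% and 6.22% did. The median log2FC of the 7 genes was -0.17, -0.21 and -0.42 in the A2780, PEA and PEO pairs, beside medians over all genes of -0.025, 0.0053 and -0.017.

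**Figure D1:**
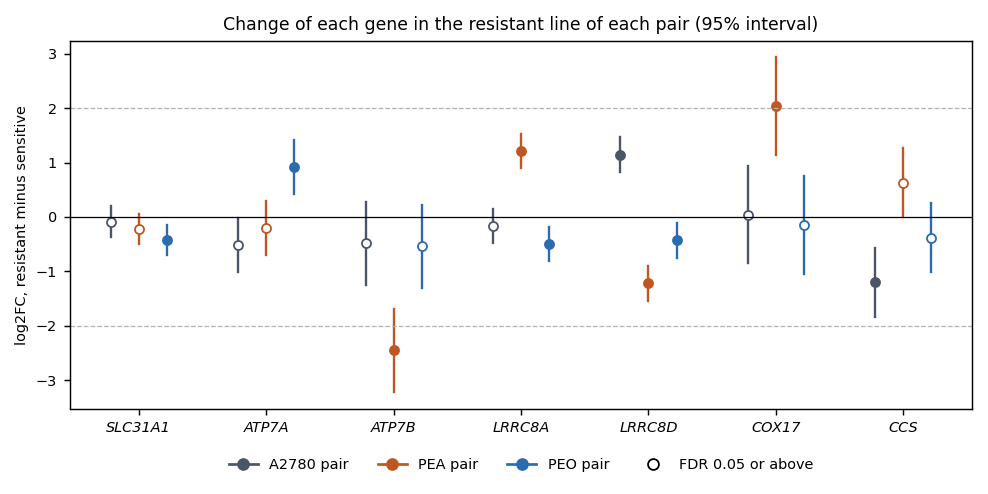
Change of each gene, resistant minus sensitive line, in the 3 pairs, as log2FC with the 95% interval of the limma fit. Filled points had an FDR below 0.05, dashed lines mark a log2FC of 2 either way, and the PEA pair holds the points farthest from 0, ATP7B at -2.45 and COX17 at 2.04.

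SLC31A1, the importer, lies at chr9:115983824-116026772 on the plus strand (GRCh37), where it overlaps CDC26 on the opposite strand. It was at 6.26, 6.44 and 6.16 in A2780 and at 6.22, 6.24 and 6.15 in CP70. PEA1 held 5.99, 6.23 and 6.09 and PEA2 5.88, 5.97 and 5.81. PEO1 held 5.22, 5.25 and 5.52 and PEO4 4.67, 4.83 and 5.23. Every library of the PEO lines lay below every library of the other lines, and within the PEO pair the highest PEO4 library just overlapped the lowest PEO1 library.

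The fall of SLC31A1 in PEO4 passed the test, at a log2FC of -0.42 (SE 0.13, limma FDR 0.0161), which is 1.34-fold lower. In the PEA pair the log2FC was -0.22 (95% interval -0.50 to 0.06, limma FDR 0.166) although the ranges of the lines did not overlap, and in the A2780 pair it was -0.08 (interval -0.36 to 0.20). All 3 pairs thus had a negative value, and 1 of them passed the test. The PEO call was lost without PEO1 replicate 3 (limma FDR 0.0899), without PEO4 replicate 1 (0.107) and without PEO4 replicate 2 (0.0583). Differences in the change of SLC31A1 between pairs were not called, with values of -0.13 for PEA minus A2780 (interval -0.53 to 0.26), -0.34 for PEO minus A2780 (interval -0.73 to 0.06) and 0.20 for PEA minus PEO (interval -0.19 to 0.60). The second of these was called without PEO4 replicate 3, at -0.50 (limma FDR 0.0266).

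**Figure D2:**
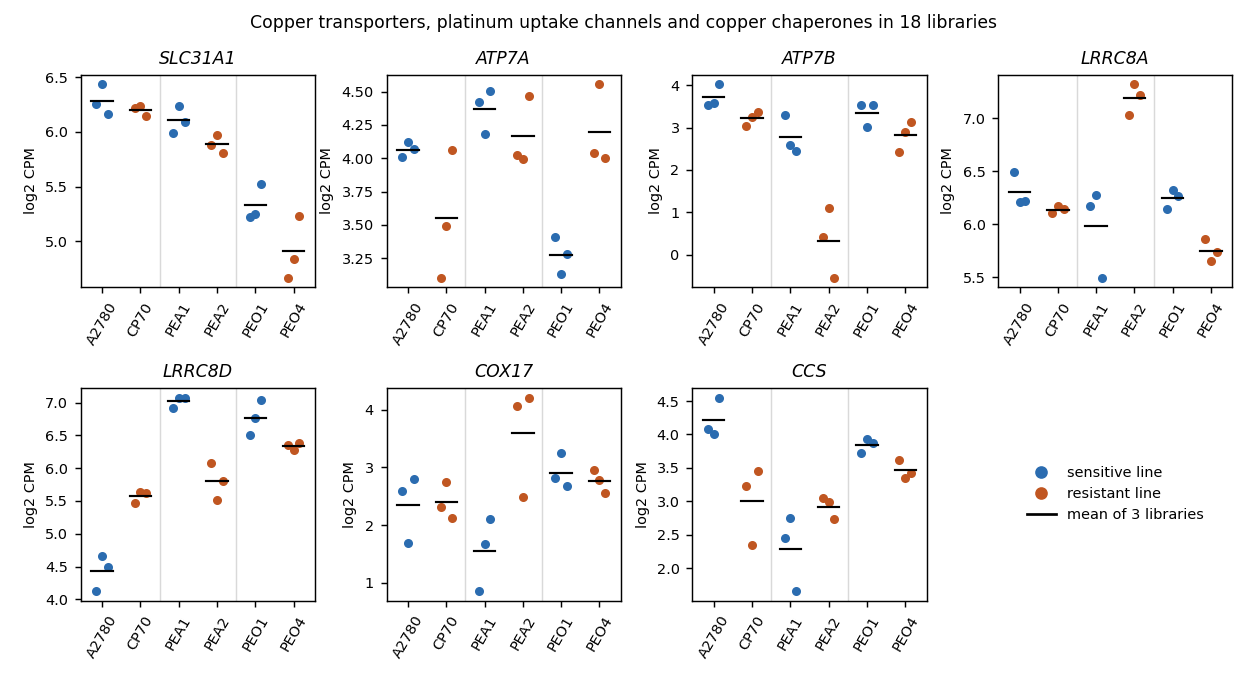
Level of each gene in every library, in log2 CPM, by cell line (blue, sensitive; orange, resistant; black bar, mean of 3 libraries). SLC31A1 is lowest in PEO1 and PEO4, ATP7B falls to a mean of 0.33 in PEA2, and LRRC8D runs from 4.43 in A2780 to 7.02 in PEA1.

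ATP7A, the first of the exporters, lies at chrX:77166187-77305892 on the plus strand (GRCh37) and overlaps PGK1 on the same strand and PGAM4 on the opposite one, so that reads in the overlap could have been assigned to either gene. PEO1 held 3.41, 3.13 and 3.28, and PEO4 held 4.04, 4.56 and 4.0. All 3 PEO4 libraries lay above all 3 PEO1 libraries, and ATP7A rose 1.90-fold (log2FC 0.93, SE 0.24, limma FDR 0.00372). A2780 held 4.01, 4.12 and 4.07 and CP70 3.10, 3.49 and 4.06. The third CP70 library reached the level of A2780, and the difference of -0.51 (interval -1.01 to -0.02) missed the threshold, with a limma FDR of 0.0956. Without that CP70 replicate 3 it was called, at -0.77 (FDR 0.0184), and it was also called with voom weights (FDR 0.0307). PEA1 held 4.42, 4.18 and 4.51 and PEA2 4.02, 4.0 and 4.47, which overlap, with a difference of -0.21 (interval -0.70 to 0.29).

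ATP7B, the Wilson disease gene, lies at chr13:52504572-52586261 on the minus strand (GRCh37). PEA1 held 3.29, 2.60 and 2.45, from 8 to 13 reads per library, and PEA2 held 0.42, 1.11 and -0.54, from 1 to 7 reads. The lines did not overlap, and ATP7B fell by 2.45 on the log2 scale in PEA2 (SE 0.37, limma FDR 8.51e-06), which is 5.48-fold. Few reads stand behind both levels, so the size of the fall depends on the reads added before the logarithm. Under the 8 alternative settings other than leaving out a library, the log2FC ran from -3.00 to -2.01, and ATP7B was called lower in each. Over the fits that left out 1 library the log2FC ran from -2.84 to -2.02, and ATP7B was called lower in all 18. Only leaving out a PEA1 or PEA2 library could move this log2FC, and the remaining fits repeat the same value. A2780 held 3.54, 3.58 and 4.03 and CP70 3.05, 3.26 and 3.38. These lines did not overlap either, yet the difference of -0.49 (interval -1.25 to 0.28, limma FDR 0.313) did not pass the test. PEO1 held 3.53, 3.01 and 3.53 and PEO4 2.42, 2.91 and 3.12, which overlap, with a difference of -0.54 (interval -1.30 to 0.23, limma FDR 0.259).

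The balance of the exporters was followed within each library. Within a library, the log2 value of ATP7A minus that of ATP7B averaged 0.35 ± 0.27 in A2780 and 0.32 ± 0.32 in CP70 (SD, n = 3 each), and these lines overlapped. It averaged 1.59 ± 0.46 in PEA1 and 3.84 ± 1.08 in PEA2, and -0.08 ± 0.19 in PEO1 and 1.38 ± 0.44 in PEO4, without overlap in either pair. The PEA shift combined log2FC values of -0.21 for ATP7A and -2.45 for ATP7B, and the PEO shift combined 0.93 for ATP7A and -0.54 for ATP7B. In the A2780 pair the 2 genes had close values, -0.51 and -0.49. The importer set against ATP7A gave 2.06 ± 0.22 in PEO1 and 0.71 ± 0.48 in PEO4, again without overlap. It gave 1.73 ± 0.27 in PEA1 and 1.72 ± 0.34 in PEA2, and 2.22 ± 0.11 in A2780 and 2.65 ± 0.52 in CP70, and the lines of each of these pairs overlapped. Set against ATP7B, the importer gave 3.32 ± 0.54 in PEA1 and 5.56 ± 0.75 in PEA2, without overlap. It gave 2.57 ± 0.38 in A2780 and 2.97 ± 0.20 in CP70, and 1.98 ± 0.28 in PEO1 and 2.09 ± 0.16 in PEO4, with overlap in both pairs.

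LRRC8A, the required channel subunit, lies at chr9:131644412-131680318 on the plus strand (GRCh37), 15618 kb beyond SLC31A1, and overlaps KYAT1 on the opposite strand. PEA1 held 6.18, 6.27 and 5.50 and PEA2 7.03, 7.32 and 7.22. Every PEA2 library lay above every library of the other 5 lines, and LRRC8A rose 2.32-fold in PEA2 (log2FC 1.21, SE 0.15, limma FDR 9.30e-07). PEO1 held 6.14, 6.33 and 6.27 and PEO4 5.87, 5.65 and 5.74, without overlap. The fall in PEO4 was 1.41-fold (log2FC -0.50, limma FDR 0.0124), and without PEO4 replicate 2 it missed the threshold (FDR 0.0518). A2780 at 6.49, 6.21 and 6.22 and CP70 at 6.10, 6.17 and 6.14 differed by -0.17 (interval -0.48 to 0.15, limma FDR 0.410).

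LRRC8D, the subunit of cisplatin-permeable channels, lies at chr1:90286573-90402170 on the plus strand (GRCh37), in a row after LRRC8B and LRRC8C with gaps of 35.2 kb and 51.1 kb. It overlaps an unnamed protein-coding gene on the same strand, which was not in the expression table. A2780 held 4.13, 4.67 and 4.50, the lowest level of the 6 lines, and CP70 5.46, 5.64 and 5.62. LRRC8D rose 2.21-fold in CP70 (log2FC 1.14, SE 0.15, limma FDR 4.29e-06). PEA1 held 6.92, 7.08 and 7.07 and PEA2 6.08, 5.51 and 5.81. LRRC8D fell 2.33-fold in PEA2 (log2FC -1.22, SE 0.15, limma FDR 9.65e-07), so the A2780 and PEA pairs had opposite signs with no overlap in either.

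In the PEO pair LRRC8D was at 6.51, 6.77 and 7.03 in PEO1 and at 6.35, 6.28 and 6.38 in PEO4. The lines did not overlap, and the fall (log2FC -0.43) had a limma FDR of 0.0307. This call was the least stable of the channel genes: it was lost without PEO1 replicate 2 (FDR 0.0676), PEO1 replicate 3 (0.172), PEO4 replicate 1 (0.0629), PEO4 replicate 2 (0.0874) or PEO4 replicate 3 (0.0554), with quantile normalization (0.0518) and without the limma trend (0.0531).

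LRRC8D set against LRRC8A within a library separated the lines of the A2780 pair and those of the PEA pair. The log2 difference was -1.87 ± 0.43 in A2780 and -0.57 ± 0.06 in CP70, and 1.04 ± 0.46 in PEA1 and -1.39 ± 0.43 in PEA2 (SD, n = 3 each). Neither pair overlapped, and the shift was towards LRRC8D in CP70 and towards LRRC8A in PEA2. PEO1 at 0.52 ± 0.21 and PEO4 at 0.59 ± 0.09 overlapped. The other subunits in the table were LRRC8B and LRRC8C, and LRRC8E was not analysed here. LRRC8C fell in PEA2 (log2FC -1.08, limma FDR 0.000958) and in PEO4 (-1.80, FDR 8.17e-06), and LRRC8B rose in PEA2 (0.53, FDR 0.00174) and fell in PEO4 (-0.63, FDR 0.000667). With LRRC8A and LRRC8D, whose PEO calls were lost without certain libraries, the 4 listed channel subunits were called lower in PEO4, where 21.9% of all genes were. In the A2780 pair neither LRRC8B (0.09) nor LRRC8C (-0.41) was called.

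**Figure D3:**
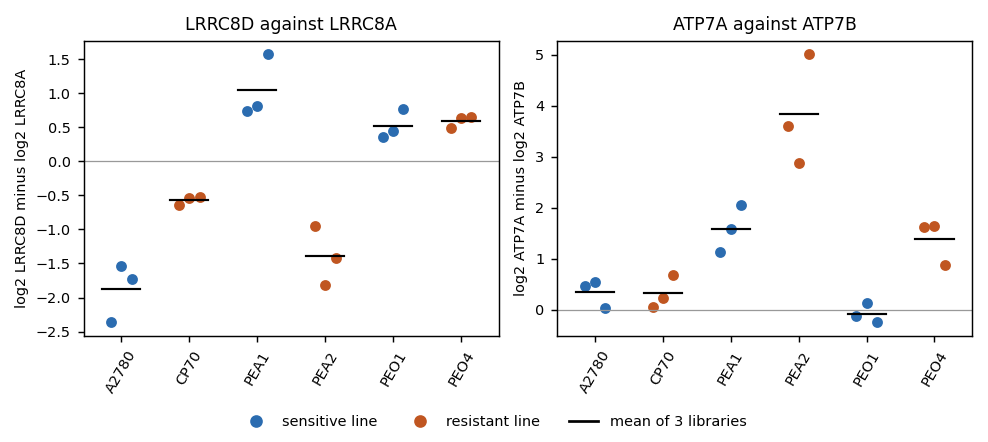
Log2 value of LRRC8D minus LRRC8A (left) and of ATP7A minus ATP7B (right) in each library, by cell line (blue, sensitive; orange, resistant; black bar, mean of 3 libraries). The left panel moves from -1.87 to -0.57 between A2780 and CP70 and from 1.04 to -1.39 between PEA1 and PEA2, and the right panel moves up in the PEA and PEO pairs.

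COX17, the mitochondrial copper chaperone, lies at chr3:119373360-119396301 on the minus strand (GRCh37) and overlaps POPDC2 on the same strand. It was a low gene, with 2, 4 and 7 reads in the PEA1 libraries (0.86, 1.68 and 2.11) and 31, 19 and 40 in those of PEA2 (4.07, 2.49 and 4.21). The lines did not overlap, although the PEA2 libraries themselves spread widely, and COX17 rose 4.11-fold (log2FC 2.04, SE 0.43, limma FDR 0.000368). It was called in all 18 fits that left out 1 library, of which only those without a PEA1 or PEA2 library could move the log2FC. The log2FC ran from 1.70 to 2.59 and was below 2 without PEA1 replicate 1, PEA2 replicate 1 or PEA2 replicate 3. A2780 held 2.59, 1.69 and 2.79 and CP70 2.32, 2.76 and 2.12. PEO1 held 2.81, 3.24 and 2.68 and PEO4 2.96, 2.77 and 2.56. Both of these pairs overlapped, with differences of 0.04 (interval -0.85 to 0.94) and -0.15 (interval -1.04 to 0.75), so changes up to about that width were not detectable at this depth.

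CCS, the chaperone of superoxide dismutase 1, lies at chr11:66360624-66373490 on the plus strand (GRCh37). A2780 held 4.08, 4.01 and 4.55, above every other library in the series, and CP70 held 3.24, 2.35 and 3.45. CCS fell 2.30-fold in CP70 (log2FC -1.20, SE 0.31, limma FDR 0.00343). PEA1 held 2.45, 2.76 and 1.66, from 5 to 9 reads, and PEA2 3.05, 2.98 and 2.73. These overlapped in 1 library, and the difference of 0.63 (interval -0.01 to 1.27) had a limma FDR of 0.0797, which became 0.0273 without PEA1 replicate 2. PEO1 held 3.72, 3.93 and 3.88 and PEO4 3.62, 3.35 and 3.43, and the difference of -0.38 (interval -1.02 to 0.26) was not called although the lines did not overlap.

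The order of the lines differed from gene to gene. SLC31A1 ran from A2780 (6.29 ± 0.14) through CP70, PEA1, PEA2 (5.89 ± 0.08) and PEO1 to PEO4 (4.91 ± 0.29), with gaps between neighbours only after PEA1 and after PEA2. ATP7A ran from PEA1 (4.37 ± 0.17) to PEO1 (3.27 ± 0.14), and no neighbours in its order were separate. ATP7B ran from A2780 (3.72 ± 0.27) to PEA2 (0.33 ± 0.83), with gaps after A2780 and before PEA2. LRRC8A had 1 gap, below PEA2. LRRC8D had PEA1 and PEO1 overlapping at the top, PEO4 alone, PEA2 and CP70 overlapping, and A2780 alone at the bottom. COX17 had no gap, and CCS had gaps after A2780 and after PEO1.

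The distance between the highest and the lowest line was 3.39 on the log2 scale for ATP7B, which is 10.5-fold, 2.59 for LRRC8D, 2.04 for COX17 and 1.93 for CCS. It was 1.44 for LRRC8A, 1.37 for SLC31A1 and 1.10 for ATP7A, beside a median of 1.88 over all genes. ATP7A and SLC31A1 thus varied less between lines than the median gene, and ATP7B and LRRC8D more.

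Levels of different genes were compared per kilobase of exon. Over the 18 libraries the mean log2 CPM per kilobase was 3.89 for LRRC8A, 3.71 for LRRC8D and 3.42 for SLC31A1, and 2.19 for CCS and 1.66 for COX17. ATP7A and ATP7B were lowest, at -0.88 and -1.53. The annotated exons of ATP7A together span 28.1 kb and those of ATP7B 18.9 kb, against longest transcripts of 8.57 kb and 7.02 kb. Divided by the longest transcript the values were 0.84 for ATP7A, -0.11 for ATP7B, 4.01 for LRRC8D, 3.19 for COX17 and 3.01 for CCS. ATP7A and ATP7B stayed lowest, while COX17 and CCS changed places. These means pool lines whose order differs. Per kilobase of all exons, LRRC8D was above LRRC8A in PEA1 (4.74 against 3.60), PEO1 and PEO4, and below SLC31A1 in A2780 (2.15 against 3.92). ATP7B was above ATP7A in A2780 (-0.52 against -0.75), CP70 and PEO1 on the same measure. Divided by the longest transcript, ATP7A was instead slightly above ATP7B in A2780 and CP70, and ATP7B stayed above in PEO1.

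The changes of the same gene in different pairs were compared in the same fit. For PEA minus A2780, 5 of the 7 genes were called, in a background of 57.5% of all genes. For PEO minus A2780, 2 were called, in a background of 47.5%. For PEA minus PEO, 5 were called, in a background of 58.7%. These contrasts share libraries, and they do not count as separate evidence.

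LRRC8D differed in all 3 of these contrasts, by -2.37 (SE 0.22, limma FDR 1.79e-08) for PEA minus A2780, -1.57 (FDR 6.10e-06) for PEO minus A2780 and -0.79 (FDR 0.00396) for PEA minus PEO. LRRC8A, COX17 and ATP7B differed where the PEA pair was involved. LRRC8A did so by 1.38 against the A2780 pair and 1.71 against the PEO pair (limma FDR 1.78e-05 and 1.27e-06), COX17 by 2.00 and 2.19 (0.00817 and 0.00427), and ATP7B by -1.97 and -1.92 (0.00299 and 0.00359). ATP7A differed where the PEO pair was involved, by 1.44 for PEO minus A2780 (limma FDR 0.00148) and -1.13 for PEA minus PEO (0.00711). CCS differed by 1.84 for PEA minus A2780 (limma FDR 0.00119), and its difference of 1.01 for PEA minus PEO had an FDR of 0.0511. The latter was called in 4 of 7 alternative settings and in 5 of 18 fits that left out 1 library.

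A linear model with pair and sensitivity as terms tested the shift averaged over the 3 pairs, and it called 24.1% of all genes. A large shift in 1 pair alone can give such a call. ATP7B was the 1 gene of the 7 called, at -1.16 (SE 0.31, limma FDR 0.0132). Its separate values were -0.49, -2.45 and -0.54, so the average rests mostly on the PEA pair. SLC31A1 was next, at -0.24 (interval -0.43 to -0.05, limma FDR 0.0629), and it was called without A2780 replicate 3 (FDR 0.0487) or without PEO4 replicate 3 (0.0427). With the differences of the 3 pairs as the replicates, ATP7B had an FDR of 0.98.

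Each gene was set beside the 5 listed genes on either side of it on the chromosome. COX17 lay between TIMMDC1 and GSK3B, which rose in PEA2 by 1.18 and 1.11 on the log2 scale (limma FDR 3.01e-07 and 1.51e-06), and 9 of its 10 neighbours were higher there, with a median log2FC of 0.79. ATP7B lay between WDFY2 and ALG11, which fell in PEA2 (log2FC -0.96 and -0.86, limma FDR 0.0213 and 0.00637) and in CP70 (-0.96 and -1.75, FDR 0.0331 and 1.17e-05). Around ATP7B the median log2FC was -0.83 in the PEA pair, with 8 of 10 neighbours lower, and -0.78 in the A2780 pair, with 9 of 10 lower. CCS in the A2780 pair had 8 of 10 neighbours lower, with a median of -0.49, and its neighbour CTSF, a lysosomal protease, fell by 4.45. LRRC8A rose in PEA2 beside CCBL1, an older symbol of KYAT1, at 0.95 (limma FDR 0.0496), with 6 of 10 neighbours higher and a median of 0.32. ATP7A in the PEO pair lay between COX7B (-0.34) and PGAM4 (-0.16), neither of them called, while 7 of its 10 neighbours were higher, with a median of 0.30. For LRRC8D in the A2780 pair, the next genes LRRC8C (-0.41) and ZNF326 (-0.42, limma FDR 0.0467) had the opposite sign, and 4 of 10 neighbours were higher, with values up to 3.38 and a median of -0.17. LRRC8D fell in PEA2 beside a fall of LRRC8C (-1.08, limma FDR 0.000958), while ZNF326 (0.02) was not called. There 7 of 10 neighbours were lower, with a median of -0.31. The fall of LRRC8D in PEO4 lay beside a fall of LRRC8C (-1.80, limma FDR 8.17e-06), with ZNF326 (0.11) again not called. There 6 of 10 neighbours were lower, with a median of -0.31.

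**Figure D4:**
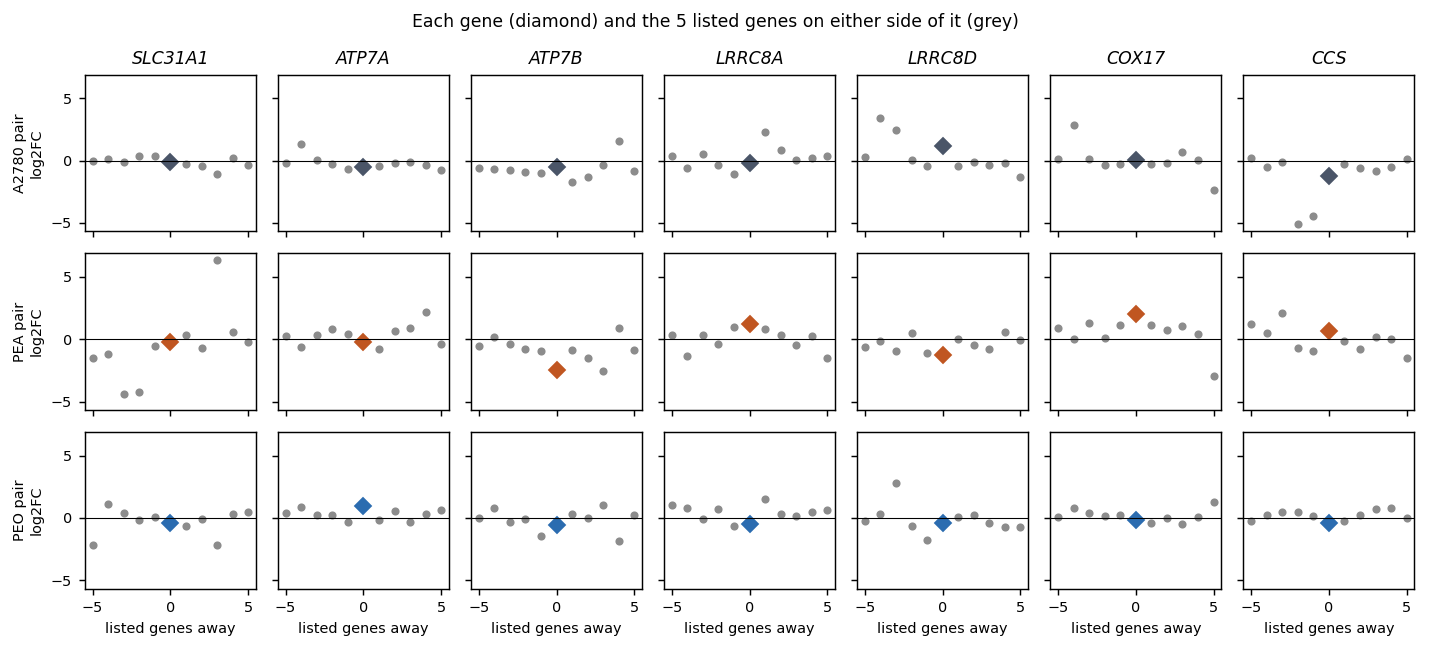
Log2FC of each gene (diamond) and of the 5 listed genes on either side of it (grey), by pair (rows) and gene (columns), with the horizontal axis in listed genes counted from the gene. In the PEA pair 9 of 10 neighbours of COX17 lie above 0 and 8 of 10 neighbours of ATP7B lie below it.

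The genes whose log2 values followed each member most closely over the 18 libraries were taken from 9675 genes with a mean of at least 3, as a description. SLC31A1 was closest to DTL, a ubiquitin ligase adaptor (r = 0.96), and RFWD3, a ubiquitin ligase (0.96). LRRC8D was closest to VANGL1, a planar cell polarity protein, and BEND7 (0.98 each). LRRC8A was closest to EHD3, an endocytic recycling ATPase (0.95), and NIPSNAP1 (0.92), and ATP7B to CHST10, a sulfotransferase (0.94), and AFG3L2, a mitochondrial protease (0.93). ATP7A had ZKSCAN8 (0.88) and BTN2A1 (0.86), COX17 the pseudogene BRD7P2 (0.85) and the initiation factor EIF2A (0.84), and CCS had CBWD5, of a family of near-identical copies (0.88), and OFD1 (0.87). The points share lines and 3 libraries each, so these values reflect 6 line means to a large extent. Among the 7 genes themselves r ran from -0.68 for ATP7B with LRRC8A to 0.45 for LRRC8A with COX17, so the 7 did not form one group.

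Of 49 other genes of copper handling and platinum carriage, in 7 lists, 41 were in the table. In the A2780 pair 18 were called (9 higher, 9 lower), 43.9% beside 39.9% of all genes. In the PEA pair 33 were called (15 higher, 18 lower), 80.5% beside 61.9%, and in the PEO pair 17 (4 higher, 13 lower), 41.5% beside 41.5%. Their median log2FC was -0.03, -0.24 and -0.14 in the A2780, PEA and PEO pairs.

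Among the other platinum carriers, SLC22A3, an organic cation transporter, fell from 712 to 1738 reads per library in PEO1 to 5 to 12 in PEO4 (log2FC -6.38, limma FDR 3.05e-09). The efflux carrier SLC47A1 rose in CP70 (log2FC 1.47, limma FDR 0.0242), and in the PEA pair it went from 20 to 32 reads in PEA1 to 0 or 1 in PEA2 and was called lower. SLC47A2 was called lower in PEA2, from 12 to 15 reads to 0 or 1, and higher in PEO4, from 0 or 1 to 9 to 16. The sizes of those last changes depend on the reads added before the logarithm. TMEM205, a membrane protein linked to cisplatin resistance, rose in CP70 (1.16, FDR 3.18e-05) and in PEA2 (1.11, FDR 2.92e-05). It was not called in the PEO pair (0.33, limma FDR 0.156). Of the 5 listed carriers 2, 4 and 2 were called in the A2780, PEA and PEO pairs. These are 40%, 80% and 40%, beside 39.9%, 61.9% and 41.5% of all genes.

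Of 11 genes of copper delivery, 3, 9 and 4 were called in the A2780, PEA and PEO pairs. These are 27.3%, 81.8% and 36.4%, beside 39.9%, 61.9% and 41.5% of all genes. GLRX, which reduces glutathione-bound proteins, rose in CP70 (log2FC 2.47, limma FDR 1.00e-05) and PEA2 (1.93, FDR 9.35e-05). COX11, which inserts copper into cytochrome c oxidase, had the largest fall of this list in PEA2 (-2.28, FDR 1.28e-09), where COX17 rose. SCO2, a partner in the same assembly, had it in PEO4 (-1.32, FDR 0.00284), and COA6, another assembly factor, had it in CP70 (-1.39, FDR 0.000208). ATOX1, which hands copper to ATP7A and ATP7B, rose by 0.55 in PEA2 (FDR 0.00621) and was not called in the other pairs. SLC25A3, also of this list, fell in all 3 pairs. Its log2FC was -0.42, -0.54 and -0.46 (limma FDR 0.000977, 3.96e-05 and 0.000357) in the A2780, PEA and PEO pairs.

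The metalloreductases, which reduce copper before import, had 4, 4 and 2 of 5 genes called in the A2780, PEA and PEO pairs. These are 80%, 80% and 40%, beside 39.9%, 61.9% and 41.5% of all genes. CYBRD1 rose in CP70 (log2FC 2.47, limma FDR 2.44e-05) and PEO4 (1.53, FDR 0.00293) and fell in PEA2 (-4.45, FDR 4.85e-09). STEAP4 had 0 reads in all PEA1 libraries and 32 to 67 in PEA2, which was at least 9.35-fold higher against a floor of 3 reads per library, and it fell in PEO4 (-1.61, FDR 0.00228). STEAP2 was called lower in CP70, from 1 to 8 reads to 0 to 2.

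Of 10 copper enzymes, 5, 8 and 3 were called in the A2780, PEA and PEO pairs. These are 50%, 80% and 30%, beside 39.9%, 61.9% and 41.5% of all genes. Ceruloplasmin (CP), the copper-carrying ferroxidase of plasma, fell in CP70 (log2FC -3.50, limma FDR 1.68e-07) and in PEA2 (-2.63, FDR 4.22e-06), and was called higher in PEO4, from 0 to 2 reads to 22 to 63. LOXL4, a collagen cross-linking oxidase, fell most in PEA2, from 123 to 162 reads to 2 to 6, LOXL2 fell most in PEO4 (-2.05, FDR 3.68e-10), LOX rose most in CP70 (1.90, FDR 2.69e-05) and LOXL1 was called higher in PEA2, from 0 to 3 reads to 12 to 19. SOD1, the enzyme that CCS supplies, rose in PEO4 (1.11, FDR 1.44e-05), and its difference in the A2780 pair, where CCS fell, was not called.

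MTF1 and SP1, whose motif letters were searched above, were both in the table. MTF1 rose in CP70 (log2FC 0.47, limma FDR 0.0178) and fell in PEA2 (-0.35, FDR 0.0495) and PEO4 (-0.53, FDR 0.00773), and SP1 fell in PEA2 (-0.46, FDR 0.00192). Of 6 listed genes of lipoylation, the pathway on which excess copper is toxic, 3, 4 and 3 were called in the A2780, PEA and PEO pairs. That is 50%, 66.7% and 50%, beside 39.9%, 61.9% and 41.5% of all genes. FDX1, the reductase upstream of lipoylation, fell in all 3 pairs (log2FC -0.93, -0.63 and -0.42, limma FDR 7.45e-05, 0.00188 and 0.0374 in the A2780, PEA and PEO pairs). LIAS fell most in CP70 (-0.98, FDR 0.0123) and DLAT in PEO4 (-0.48, FDR 0.00114), and PDHB rose in PEA2 (0.45, FDR 0.0125).

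**Figure D5:**
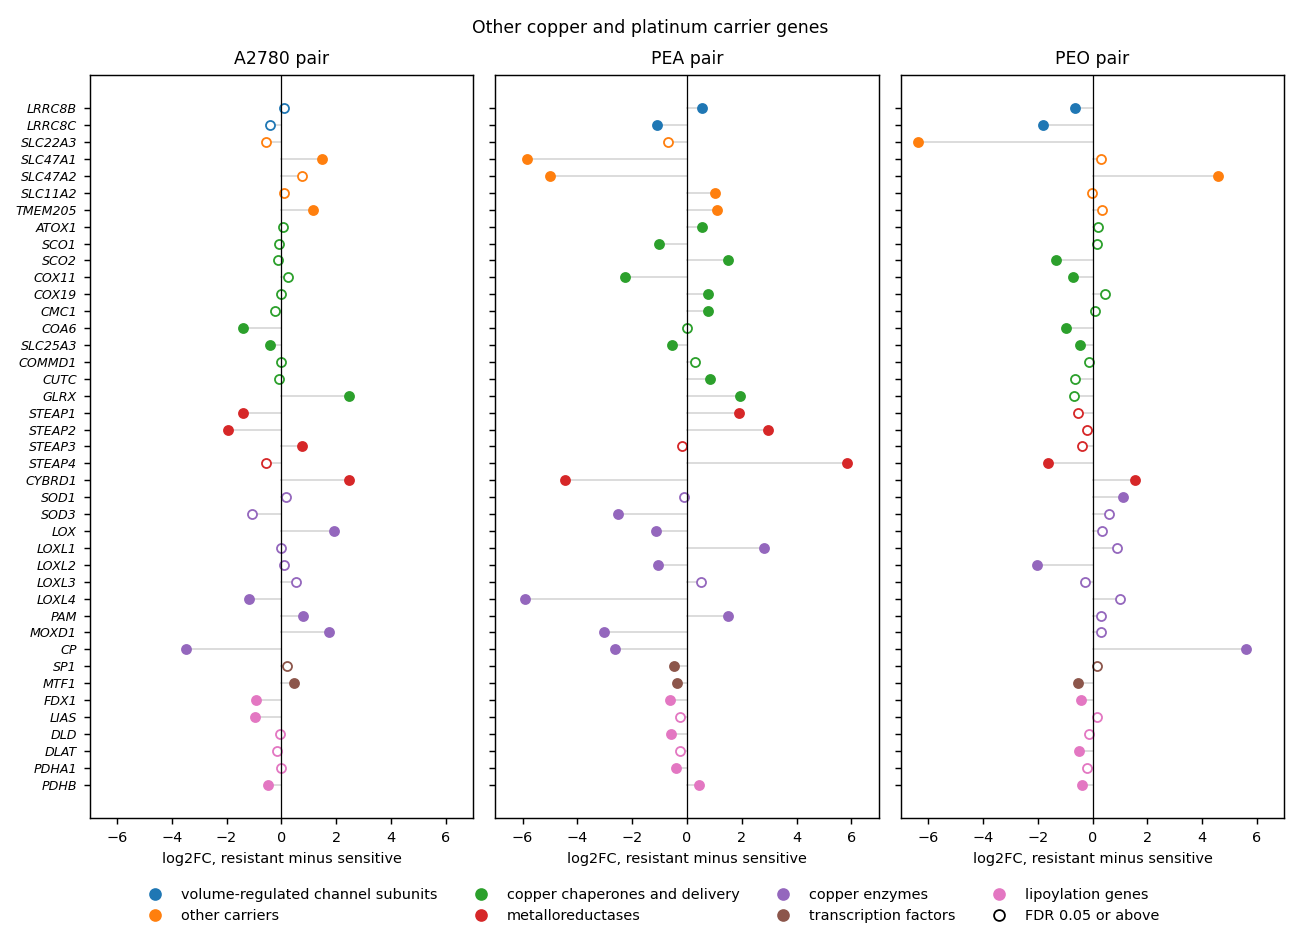
Log2FC of the 41 other listed genes in each pair, coloured by list, filled where the FDR was below 0.05. Filled points number 18, 33 and 17 from left to right, and sizes of genes with few reads in 1 line depend on the reads added.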

How the data were processed

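RNA was sequenced from 6 lines in 3 libraries each, from rRNA-depleted RNA with a stranded kit. Per the submitters' processing notes the authors used Bowtie2, featureCounts and limma with hg19. The strand setting of the counting and the filter on genes are not given in the sources used here. The deposited values are log2 CPM, with 0.5 reads added to each count and scaled library sizes. Whole reads were recovered for 100% of values (tolerance 0.1 read) and were used for depth, voom weights and other scalings.

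Log2 values were fitted with limma 3.58.1 in R 4.3.3 (trended variance), 1 mean per line over 18 libraries, with contrasts for the pairs and for differences between pairs, and in a model with pair and sensitivity. Benjamini-Hochberg FDR covered all 12853 genes. Libraries of 1 line differed by more than sampling noise (chi-square per degree of freedom 1.74 to 13.5), and none was merged. The members, lists and tests were chosen with earlier results of these data known. Named were the members, the largest called rise and fall per list and pair, the 2 genes most correlated with each member and the nearest listed genes. Chosen after their values were seen were ATOX1, SOD1, SLC25A3, and SLC47A2, TMEM205, CP, MTF1 and FDX1 in pairs where they were not the largest.

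On simulated data with 200 genes changed in each pair, the fit recovered 200, 197 and 197 in the A2780, PEA and PEO pairs and called 3, 29 and 3 unchanged genes. Beside 197 recovered genes, the 29 unchanged genes in the PEA pair are a larger share of the calls than the FDR threshold of 0.05. The recovered genes were not split by size of change or by reads. These counts therefore do not show how well small changes, or changes of genes with few reads, were found. GENCODE v44 on GRCh37 gave positions and exon lengths, and RefSeq GRCh38.p14 the upstream sequences. The builds were not mixed. The alternatives were another filter, quantile normalization, TMM, voom weights, no variance trend, 2 reads added, pairs fitted alone, a replicate block, and leaving out each library.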

Additional observations from a re-analysis of the deposited data

Results flagged for a closer look

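The results listed here stood out because the change of 1 gene between resistant and sensitive lines differed between pairs in a direct test of that difference, with the limma FDR below 0.05. For LRRC8D the PEA change minus the A2780 change was -2.37, the PEO change minus the A2780 change was -1.57 and the PEA change minus the PEO change was -0.79, on the log2 scale. For LRRC8A the PEA change exceeded the A2780 change by 1.38 and the PEO change by 1.71. For COX17 the same differences were 2.00 and 2.19, on 2 to 7 reads per PEA1 library. For ATP7B they were -1.97 and -1.92, on 1 to 7 reads per PEA2 library. For ATP7A the PEO change exceeded the A2780 change by 1.44, and the PEA change minus the PEO change was -1.13. For CCS the PEA change exceeded the A2780 change by 1.84.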

How the results depend on the processing

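Of the members' values under all alternatives, 1208 kept their direction and side of the threshold, 15 changed sign, 17 gained a call and 13 lost one. Among these alternatives, a fit without a library of another pair could not move the log2FC of a pair. In the PEA pair, 1 gene instead of 2 passed a log2FC of 2 with voom weights and with 2 reads added, and leaving out single libraries gave 1 to 2, with 1 without PEA1 replicate 1, PEA2 replicate 1 or PEA2 replicate 3. Of the genes called in the PEO pair, leaving out single libraries left 1 to 4: 2 without PEO1 replicate 3 or PEO4 replicate 1, and 1 without PEO4 replicate 2. In the linear model the number called was 2 with quantile normalization, 0 with the 3 pair differences as replicates and 1 to 2 without single libraries. Signs turned in differences that were never called. COX17 in the A2780 pair was -0.22 with quantile normalization and -0.00047 with 2 reads added, and its PEO minus A2780 difference was 0.0065 with quantile normalization. Without single libraries it ran from -0.29 to 0.26 in the A2780 pair, from -0.26 to 0.018 in the PEO pair and from -0.41 to 0.14 for PEO minus A2780. ATP7B for PEO minus A2780 then ran from -0.22 to 0.15, and ATP7A in the linear model from -0.043 to 0.17. The causes were not tested. Quantile normalization moved the median over all genes by -0.11 in the PEA pair and -0.13 for PEA minus PEO, and SLC31A1 was then called lower in PEA2 (-0.34, limma FDR 0.0332). Depth limits COX17, ATP7B and CCS most.

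The labels number the replicates alike, but same-numbered libraries of a pair did not deviate together: the mean correlation was 0.043, -0.023 and 0.024, and 4, 1 and 2 of 6 libraries correlated best with their own number in the A2780, PEA and PEO pairs. With a replicate block, the linear model called 0 of the 7 genes (ATP7B limma FDR 0.0705), and CCS for PEA minus PEO was called (1.01, FDR 0.0362).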
